A study of Mus musculus with 8 samples.

Results

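Homeobox genes that lie outside the *Hox* clusters were examined in whole uteri of mice at postnatal day 10. The genes were a fixed list of 50 symbols, drawn from the DLX, sine oculis-related, IRX, LIM, PAX, paired-like, MEIS/PBX, NK-like/engrailed and HOX-like families, and all 50 were found by symbol and gene identifier among the 27179 genes counted. Expression was measured by RNA-seq of poly(A) RNA in 4 control uteri, which carried floxed *Ezh2* alleles without Cre (*Ezh2* f/f), and in 4 *Ezh2* cKO uteri, which carried the same floxed alleles together with Cre recombinase expressed from *Amhr2* (*Ezh2* f/f; Acre). The *Amhr2* driver is active in cells that derive from reproductive tract mesenchyme, while the uterus was sequenced whole, with its epithelium and vessels. Mice had a mixed C57BL/6/129SvEv background. Each library is one labelled uterus, and the labels do not say whether uteri shared a litter. In bulk tissue, fewer cells of a type and less RNA per cell cannot be told apart.

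Homeobox genes encode transcription factors that bind DNA through a homeodomain and assign position and cell type in the embryo. EZH2 is the catalytic subunit of polycomb repressive complex 2, which methylates a lysine of histone H3 over the CpG-rich promoters of many developmental regulators, and homeobox genes are among the classical targets of that complex. *Meis* and *Pbx* genes and *Prrx1* are widely used in mesenchyme, whereas most *Dlx*, *Irx*, *Lhx* and *Pax* genes are known from brain, limb, craniofacial and eye development.

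The 8 libraries held 25287141 to 36685807 counts, which puts a floor of 3 counts at 0.0818 to 0.119 CPM, the count scaled to a common library size. Summed CPM of smooth muscle markers (7442 to 9451) and stroma markers (8929 to 13220) was high in every library, while the ovary and oviduct list summed to 49.5 to 66.4. Read counts of *Ezh2* overlapped between the groups, with a mean of 44.99 ± 8.71 CPM in controls and of 36.79 ± 4.41 in cKO uteri (SD, n = 4 per group). The log2 fold change was -0.29, with a standard error of 0.13 and an adjusted p of 0.247. These are counts over the whole gene, including exons outside the floxed part and transcripts of cells without Cre. The summed level of 9 fat markers was 3.44 to 5.34 CPM in control uteri, 99.2, 226.4 and 101 CPM in cKO replicates 1, 2 and 3, and 5.53 CPM in cKO replicate 4. *Fabp4*, a fatty acid carrier of adipocytes, stood at 0.659 to 1.43 CPM in control uteri, at 39.0 to 106.7 in cKO replicates 1 to 3 and at 1.61 in replicate 4.

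Whether the 50 genes are polycomb targets in the uterus was not measured here. To ask whether they rose in cKO uteri, each gene above 0.2 CPM in at least 4 libraries was tested with edgeR's quasi-likelihood test. The p-values were adjusted over all 16658 genes that passed. Of the 50 homeobox genes, 21 passed this filter and 29 did not. At an adjusted p under 0.05, 6 were higher in cKO uteri, namely *Six4*, *Prrx1*, *Lhx8*, *Meis1*, *Alx1* and *Lmx1a*, against a background of 2.62% of all genes tested. *Meox2* alone was lower, against 2.71% of all genes. *Lhx8*, *Alx1* and *Lmx1a* also rose more than 2-fold and were thus differentially expressed by the study's thresholds (0.666% of all genes), and edgeR called none of the 21 lower by that much (0.636% of all genes). At an unadjusted p under 0.05, the number lower by over 2-fold was 0 in edgeR, 0 in DESeq2 and 1 in limma-voom, against 1.06%, 1.03% and 1.01% of all genes. The 6 higher genes are 28.6% of the 21 tested. The 21 fold changes had a median of 0.149 on the log2 scale, with 16 above and 5 below 0, while the median over all genes tested was 0.00044. Because a gene that is low in control uteri can pass the filter through its cKO libraries, these shares describe the genes that passed and not the 50. *Lmx1a* is such a case, since 2 of 4 control and 4 of 4 cKO libraries exceeded 0.2 CPM.

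**Figure D1:**
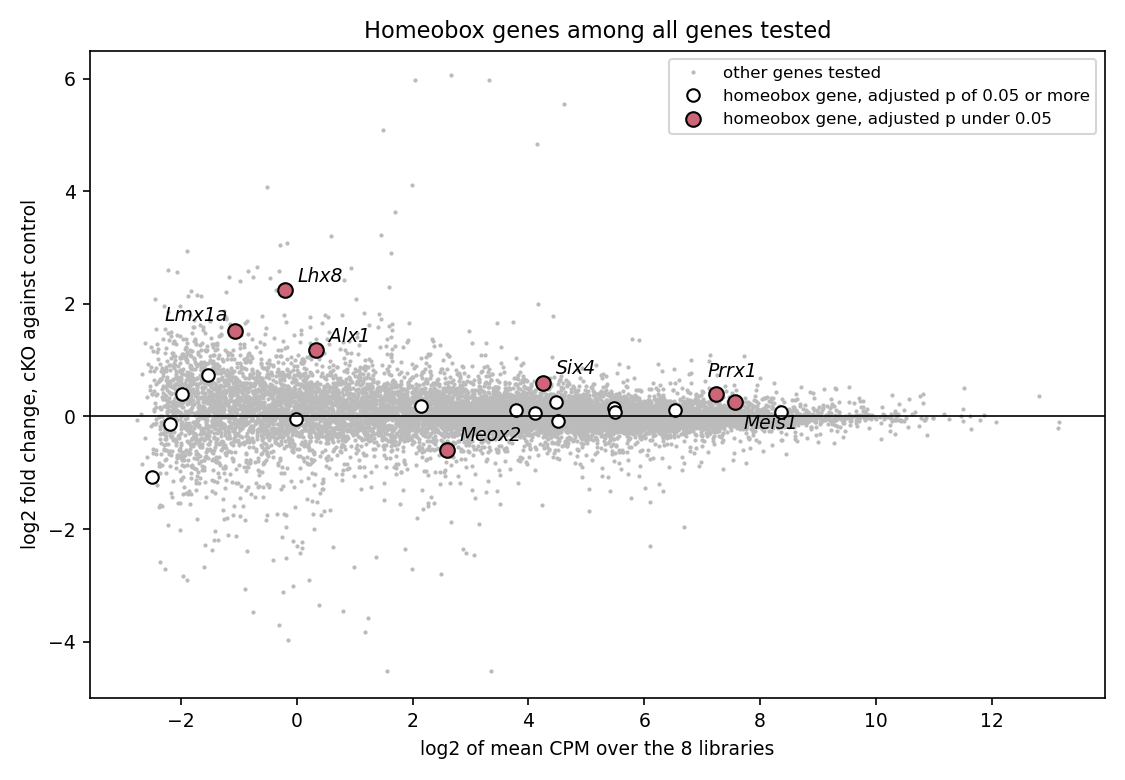
Log2 fold change of cKO against control uteri (y axis) over the log2 of the mean CPM in the 8 libraries (x axis) for all 16658 genes tested, with the 21 homeobox genes drawn as circles. *Lhx8*, *Lmx1a* and *Alx1* lie above a log2 fold change of 1 at a low level, and *Six4*, *Prrx1* and *Meis1* lie closer to 0 at a high level.

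Promoter sequences were examined because the complex acts at CpG-rich promoters. The 250 bases before the gene start in RefSeq (GRCm38.p6) were given for 37 of the 50 genes. CpG dinucleotides, which read the same on both strands, were counted in that window. The 6 called genes with a window, *Lhx8*, *Prrx1*, *Lmx1a*, *Meox2*, *Meis1* and *Six4*, held 4, 4, 9, 12, 13 and 15 CpG, and none reached 20. Of 8 genes tested and not called, 3 reached 20 (median 13.5, range 7 to 27), and of 23 genes under the filter, 10 did (43.5%, median 19, range 4 to 40). Among all other genes with a window, 17.7% of 26981 reached 20, and among the other genes tested, 32.1% of 12553. The 20 CpG limit was set for description, the differences between these sets were not tested, and the count says nothing of methylation or of binding, which were not measured here. Below are stretches of 6 windows, chosen to set 3 called genes (*Lhx8*, *Prrx1*, *Meox2*) and *Shox2* beside genes with no read in any library (*Dlx2*, *En1*). Each is written 5′ to 3′ on the strand of the gene, lower case with CpG in capitals, and stops before the outermost transcript start in GENCODE vM21. The first-listed window of *Six4*, which was the one counted, and the window of *Lmx1a* lie mostly inside transcripts of that annotation and are not printed. Windows of several compared genes, among them *Prrx2*, *Meis2*, *Six3*, *Lhx9* and *Pax9*, also lie within the gene span of that annotation. The CpG counts of all sets thus mix sequence before and within genes. The 6 stretches lie at chr3:154330660-154330810 (minus strand, *Lhx8*), chr1:163313711-163313900 (minus, *Prrx1*), chr12:37108290-37108539 (plus, *Meox2*), chr3:66981772-66982021 (minus, *Shox2*), chr2:71546755-71547004 (minus, *Dlx2*) and chr1:120602237-120602417 (plus, *En1*).
Lhx8: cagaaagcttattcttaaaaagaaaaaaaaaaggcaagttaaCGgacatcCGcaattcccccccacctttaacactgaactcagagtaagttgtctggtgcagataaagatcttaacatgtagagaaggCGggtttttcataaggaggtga
Prrx1: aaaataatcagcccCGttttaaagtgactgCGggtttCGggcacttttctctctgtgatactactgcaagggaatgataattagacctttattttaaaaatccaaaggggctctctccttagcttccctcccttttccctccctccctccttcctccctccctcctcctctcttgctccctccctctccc
Meox2: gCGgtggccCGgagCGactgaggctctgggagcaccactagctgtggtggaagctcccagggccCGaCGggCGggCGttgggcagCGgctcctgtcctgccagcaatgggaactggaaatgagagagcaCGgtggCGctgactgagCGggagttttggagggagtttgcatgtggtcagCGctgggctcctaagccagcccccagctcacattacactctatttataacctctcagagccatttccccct
Shox2: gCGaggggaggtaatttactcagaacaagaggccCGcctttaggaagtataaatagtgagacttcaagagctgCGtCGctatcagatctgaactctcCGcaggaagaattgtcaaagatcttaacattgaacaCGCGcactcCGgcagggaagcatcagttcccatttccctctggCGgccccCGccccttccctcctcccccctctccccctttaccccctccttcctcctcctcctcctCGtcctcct
Dlx2: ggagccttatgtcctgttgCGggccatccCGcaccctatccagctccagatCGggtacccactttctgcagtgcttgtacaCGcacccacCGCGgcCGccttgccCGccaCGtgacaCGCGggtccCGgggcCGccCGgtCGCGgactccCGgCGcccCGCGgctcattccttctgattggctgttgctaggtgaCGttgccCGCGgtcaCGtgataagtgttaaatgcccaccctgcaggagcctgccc
En1: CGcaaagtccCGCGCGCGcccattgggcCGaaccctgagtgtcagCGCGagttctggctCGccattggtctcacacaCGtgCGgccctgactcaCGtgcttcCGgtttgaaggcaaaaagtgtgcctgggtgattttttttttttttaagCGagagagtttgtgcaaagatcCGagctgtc

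**Figure D2:**
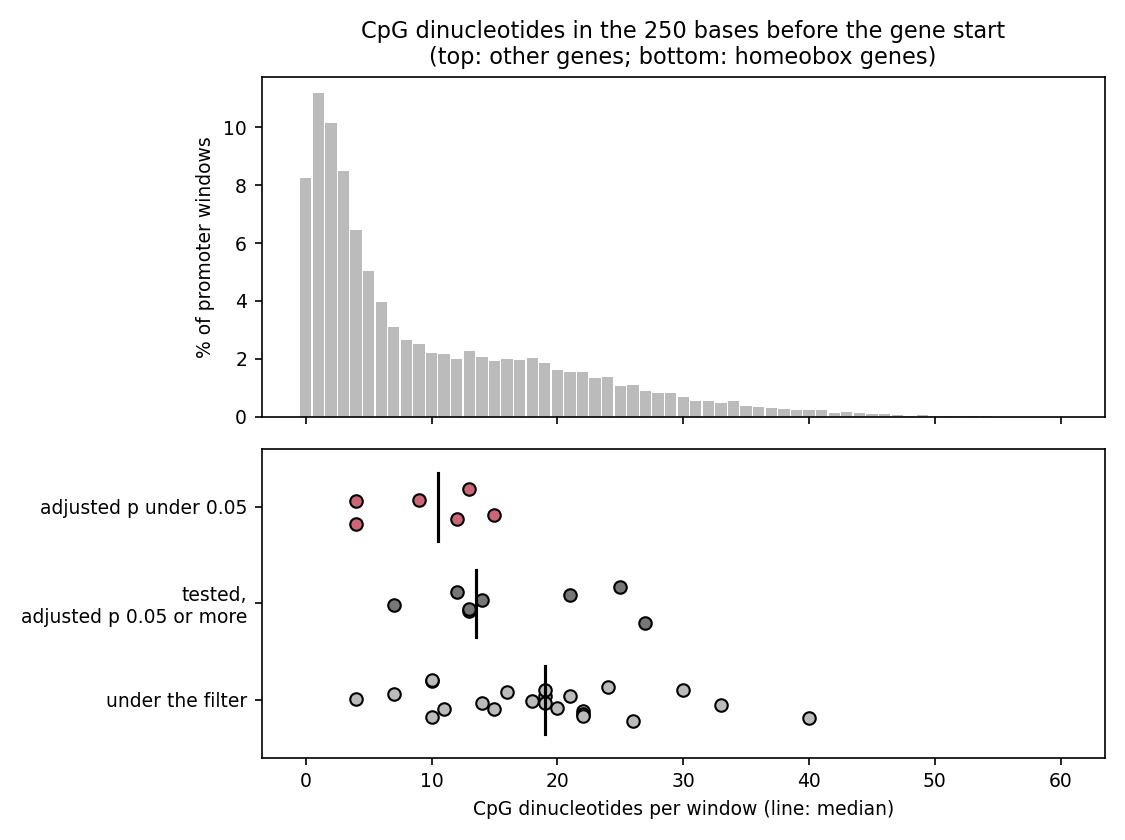
CpG dinucleotides in the 250 bases before the gene start in RefSeq (x axis), as the percentage of promoter windows of other genes in the upper panel and per homeobox gene in the lower panel, with a line at each median. The medians are 10.5 for called genes, 13.5 for genes tested and not called and 19 for genes under the filter.

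In these stretches *Lhx8* and *Prrx1* held 3 CpG each in 151 and 190 bases, *Meox2* and *Shox2* held 12 and 11 in 250 bases, *Dlx2* held 24 in 250 bases and *En1* held 15 in 181 bases. The stretches are not typical of their sets, since 2 other genes without a read in any library, *Evx1* and *Evx2*, held 10 and 14 CpG in their windows of 250 bases, close to *Meox2* and *Shox2*.

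The LIM homeobox genes encode transcription factors with LIM domains beside the homeodomain. Of 7, 4 were tested and 2 rose. *Lhx8*, known from forebrain cholinergic neurons, tooth and oocytes, had the largest fold change of the 21 genes tested. Its levels were 0.379, 0.464, 0.285 and 0.110 CPM in control replicates 1 to 4 and 1.40, 1.47, 1.76 and 1.12 CPM in cKO replicates 1 to 4. Every cKO uterus was above every control uterus, by a log2 fold change of 2.25 with a standard error of 0.34 (4.75-fold, adjusted p = 0.00231). The gene lies at chr3:154306294-154330659 on the minus strand (GRCm38). The other riser was *Lmx1a*, a regulator of dopaminergic neurons and of the roof plate, at chr1:167689237-167848741 on the plus strand. It had 0.410, 0.193, 0.214 and 0.165 CPM in control uteri and 0.854, 0.870, 0.431 and 0.701 CPM in cKO uteri. The groups did not overlap, although control replicate 1 came close to cKO replicate 3, and the log2 fold change was 1.51 with a standard error of 0.37 (adjusted p = 0.0345). Per kilobase of exon, mean levels rose from 0.122 to 0.568 CPM for *Lhx8* and from 0.0723 to 0.210 CPM for *Lmx1a*, so both stayed far under the abundant members described below.

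*Lhx6*, a regulator of interneurons and tooth mesenchyme, averaged 4.15 ± 0.60 CPM in controls against 4.74 ± 0.53 in cKO uteri (SD, n = 4 per group, adjusted p = 0.484). *Lhx2*, a regulator of eye and hair follicle, had 0.221, 0.232, 0.357 and 0.165 CPM in control uteri and 0.117, 0.0335, 0.216 and 0.0701 CPM in cKO uteri. Its log2 fold change of -1.08 had a standard error of 0.54, the groups overlapped, and the adjusted p was 0.267. *Isl1*, *Lhx9* and *Lmx1b* were under the filter, the last with 1 read in 1 cKO uterus and *Lhx9*, a gonad regulator, with 0, 1, 4 and 2 reads in control and 0, 1, 7 and 0 in cKO uteri. *Isl1*, a regulator of motor neurons, heart and pancreas, had 0, 3, 1 and 0 reads in control uteri and 9, 13, 4 and 0 reads in cKO uteri. The cKO replicate without an *Isl1* read had a fat marker sum of 5.53 CPM, and whether the reads go with fat was not tested.

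The paired-like genes take part in limb, skull and mesenchyme development. Of 10, 4 were tested and 2 rose. *Prrx1*, which marks limb and craniofacial mesenchyme and fibroblasts, was abundant and its change was small and even. It had 132.9, 137.8, 120.0 and 129.7 CPM in control uteri and 170.0, 174.4, 171.7 and 170.3 CPM in cKO uteri. The lowest cKO uterus was above the highest control uterus, with a log2 fold change of 0.40 and a standard error of 0.055 (1.32-fold, adjusted p = 0.00107). *Prrx1* lies at chr1:163245119-163313710 on the minus strand. The stroma marker sum was 8929 to 11480 CPM in control uteri, 13160 to 13220 CPM in cKO replicates 1 to 3 and 10510 CPM in replicate 4, and its part in the *Prrx1* result was not tested. The 9 stroma markers did not move together, with 5 fold changes above and 4 below 0. The collagen genes *Col3a1* (mean 6287 CPM in controls and 8063 in cKO uteri) and *Col1a1* (1557 and 2054) made up most of the sum. *Col3a1* was the 1 marker called higher, and *Hoxa10* and *Hoxa11*, regulators of uterine identity, were called lower with log2 fold changes of -0.62 and -0.49. The *Prrx1* paralog *Prrx2* stood at 23.4 ± 2.24 CPM in controls against 22.1 ± 0.768 in cKO uteri (SD, n = 4 per group), with a log2 fold change of -0.08 (adjusted p = 0.595). The difference between the paralogs was not tested.

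*Alx1*, needed for craniofacial mesenchyme, rose at a low level. It had 0.599, 0.928, 0.535 and 1.02 CPM in control uteri and 2.49, 1.61, 1.60 and 1.33 CPM in cKO uteri. The groups did not overlap, cKO replicate 1 stood above the other 3, and the log2 fold change was 1.17 with a standard error of 0.28 (2.26-fold, adjusted p = 0.0280). The gene lies at chr10:102998707-103030215 on the minus strand, and 4.22% of its exon bases are shared with the noncoding gene *Gm17028* on the same strand, so a part of its reads could be assigned to either. *Alx4*, its relative in the limb, spread widely, with 0.222 ± 0.0899 CPM in controls against 0.287 ± 0.189 in cKO uteri (SD, n = 4 per group, adjusted p = 0.702).

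The other 6 paired-like genes were under the filter. *Shox2*, a regulator of proximal limb and of the sinoatrial node, missed it narrowly, with 3 of 4 cKO libraries above 0.2 CPM. It had 0, 0, 1 and 0 reads in control uteri and 6, 6, 9 and 5 reads in cKO uteri, or 0.175 to 0.277 CPM. Summed over the group, 26 reads against 1 give a ratio of 27.2 with an exact 95% counting interval of 4.47 to 1110, which covers counting error only. With the filter left out and 45 of the 50 genes fitted, *Shox2* was a further gene called higher in cKO uteri (adjusted p = 0.00721), against 2.17% of 21522 genes called higher and 2.29% called lower in that fit, and the only one gained. Its exons share 4.62% of their bases with *Rsrc1* on the opposite strand, and the strand setting of the counting is not stated. *Rsrc1* was present at a mean of 55.9 CPM and changed by a log2 fold change of -0.10, while *Shox2* had at most 1 read in a control uterus, and a share of *Rsrc1* reads in the *Shox2* count was not tested. *Pitx3*, known from lens and midbrain, had 2, 2, 0 and 0 reads in control uteri and 4, 2, 5 and 0 in cKO uteri, and *Pitx1*, *Otx1*, *Gsc* and *Uncx* had at most 3 reads in any library.

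**Figure D3:**
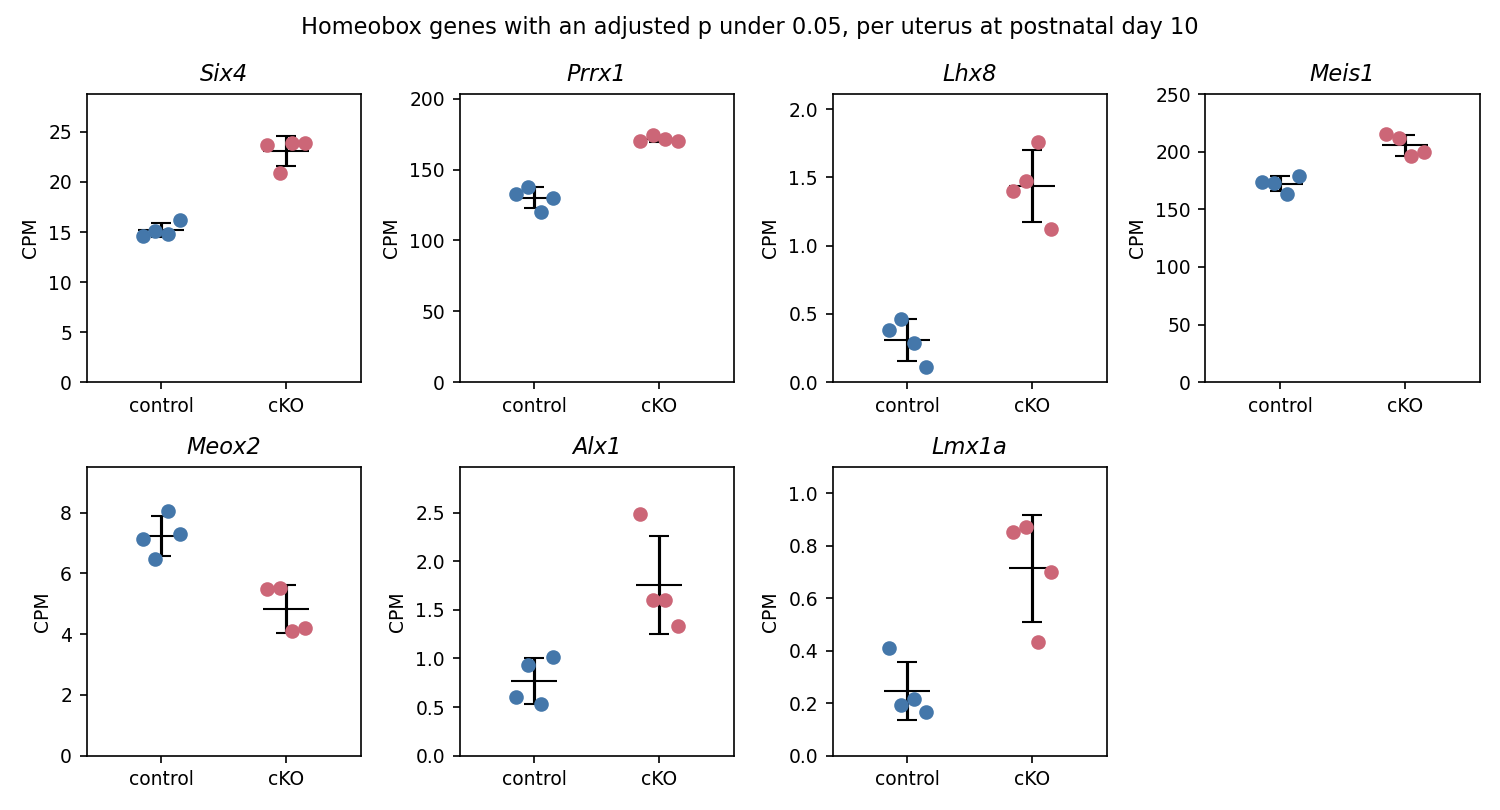
CPM per uterus (y axis, from 0) of the 7 homeobox genes with an adjusted p under 0.05, in control (blue) and cKO (red) uteri, with the mean and SD of 4 libraries in black. The control and cKO points of each gene do not overlap, with cKO points above the controls for 6 genes and below them for *Meox2*.

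The sine oculis-related genes act in sensory placodes, kidney and muscle precursors. *Six4* had the smallest adjusted p of the 21 genes. Its levels were 14.57, 15.13, 14.81 and 16.22 CPM in control uteri and 23.65, 20.85, 23.90 and 23.92 CPM in cKO uteri. The groups did not overlap, cKO replicate 2 had the lowest cKO value, and the log2 fold change was 0.60 with a standard error of 0.078 (1.52-fold, adjusted p = 0.00072). *Six4* lies at chr12:73099609-73113456 on the minus strand. *Six5* stood at 42.2 ± 3.50 and 46.8 ± 9.39 CPM with overlapping groups (adjusted p = 0.521), and *Six2* and *Six3* had no more than 1 read in any library. *Myod1*, which proteins of this family are known to activate in muscle precursors, had no read in control uteri and 0.123 to 0.272 CPM in cKO uteri, close to the floor. Of the other muscle markers under the filter, *Myog* did not overlap between the groups either, while *Myf5*, *Myf6* and *Myh8* did. Among genes with a read under the filter, 1.69% had all cKO libraries above all controls. The summed level of 13 skeletal muscle markers was 57.3 to 93.8 CPM in control and 56.7 to 81.4 CPM in cKO uteri, with *Pax7* at 0 in all libraries. Of 7 markers tested, 5 had fold changes above 0 and 2 below. *Tnnt3*, *Myh3* and *Actn3*, which encode contractile proteins, were called higher, against 2.62% of all genes tested. The part of muscle in the *Six4* result was not tested.

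MEIS and PBX proteins are homeodomain cofactors that bind DNA together with HOX proteins. All 5 were tested, all 5 fold changes were above 0, and *Meis1* was the one that passed the test. *Meis1* had 173.7, 173.0, 163.3 and 179.0 CPM in control uteri and 215.2, 211.5, 196.1 and 200.1 CPM in cKO uteri. The groups did not overlap and the difference was small, a log2 fold change of 0.26 with a standard error of 0.055 (1.19-fold, adjusted p = 0.0179). *Meis1* lies at chr11:18879817-19018985 on the minus strand, and *Gm37818* on the same strand and *Gm16140* on the opposite strand cover 9.77% and 8.51% of its exon bases. *Meis2* and *Meis3* changed by 0.08 and 0.06 on the log2 scale (adjusted p = 0.516 and 0.806). *Pbx2* changed by 0.11 (adjusted p = 0.262), with 6.24% of its exon bases shared with *Gpsm3* on the same strand. *Pbx3* averaged 20.4 ± 2.53 CPM in controls against 24.3 ± 2.18 in cKO uteri (SD, n = 4 per group), and its log2 fold change of 0.25 had a standard error of 0.097 (adjusted p = 0.162). Per kilobase of exon, *Meis2* at 26.4 CPM, *Pbx2* at 24.4 CPM and *Meis1* at 16.4 CPM in control uteri were, with *Barx2* at 22.4 CPM, the most abundant of the 50.

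The HOX-like genes held the single fall. *Meox2*, a regulator of limb muscle and of vessel growth, had 7.13, 6.46, 8.06 and 7.30 CPM in control uteri and 5.48, 5.52, 4.10 and 4.20 CPM in cKO uteri. Every cKO uterus was below every control uterus, and the level fell by 0.59 on the log2 scale with a standard error of 0.14 (1.50-fold lower, adjusted p = 0.0279). The gene lies at chr12:37108540-37179534 on the plus strand. Its paralog *Meox1* had 13.3 ± 2.01 and 14.4 ± 0.736 CPM (SD, n = 4 per group, adjusted p = 0.565). *Gbx2*, a hindbrain regulator, had no read in control uteri and 2, 0, 2 and 2 reads in cKO uteri, and 43.5% of its exon bases are shared with a transcript on the opposite strand. *Evx1* and *Evx2*, which flank the ends of the *Hoxa* and *Hoxd* clusters, had no read in any library. *Hoxd13* lies 8.75 kb from *Evx2* and went from a mean of 0.303 to 2.72 CPM (log2 fold change 3.21, adjusted p = 0.000164) in the same libraries.

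*Irx5*, a regulator of heart and retina, was the only one of the 21 genes tested whose groups did not overlap although it missed the threshold. It had 0.252, 0.310, 0.250 and 0.220 CPM in control uteri and 0.466, 0.435, 0.370 and 0.455 CPM in cKO uteri. The log2 fold change was 0.74 with a standard error of 0.31 (adjusted p = 0.190). With it, 7 of the 21 genes had all cKO libraries above all controls and 1, *Meox2*, had all below, against 5.9% and 6.43% of all genes tested. *Irx3* stood at 1.01 ± 0.265 and 0.980 ± 0.175 CPM (SD, n = 4 per group, adjusted p = 0.950). Of the IRX genes under the filter, *Irx1* had 0, 0, 1 and 2 reads in control and 3, 5, 2 and 5 in cKO uteri. Its ratio of summed counts was 5.23 with a counting interval of 1.48 to 28.2, its CPM values did not overlap, and the fit without the filter did not call it (adjusted p = 0.161). *Irx4* had 5, 8, 5 and 2 reads in control and 7, 2, 1 and 0 in cKO uteri, with overlapping groups. *Irx2* had at most 2 reads and *Irx6* had none.

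Of the 4 DLX genes and the 6 NK-like and engrailed genes 1 each was tested and not called, and none of the 3 PAX genes was tested. *Dlx3*, known from placenta, epidermis and bone, stood at 0.226 ± 0.104 and 0.212 ± 0.134 CPM (SD, n = 4 per group, adjusted p = 0.911). *Barx2*, a regulator of muscle and epithelial branching, was abundant at 44.1 ± 1.44 and 46.5 ± 6.91 CPM (SD, n = 4 per group, adjusted p = 0.672). *Pax6*, the eye regulator, had the most reads of its family, with 3, 5, 2 and 5 in control and 1, 9, 8 and 5 in cKO uteri. *Pax1* and *Pax9*, which have a paired box without a homeodomain, had at most 3 reads in any library. *En2*, known from midbrain and cerebellum, had 6, 2, 3 and 1 reads in control uteri and 0 in every cKO uterus, where 0 reads allow up to 0.0919 to 0.119 CPM per library. The fit without the filter did not call it (adjusted p = 0.0685). *Dlx4* had 2, 1, 3 and 8 reads in control and 2, 1, 1 and 3 in cKO uteri, and *Dlx1*, *Nkx3-2*, *Nkx6-1* and *Barx1* had no read in control uteri and at most 2 in a cKO uterus.

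Over the 29 genes under the filter, 5 had no read in any library (*Dlx2*, *En1*, *Evx1*, *Evx2* and *Irx6*), and 20 had at most 3 reads in every library, at or under the floor. Of the 14 without a read in control uteri, 9 had reads in cKO uteri, none with more than 2 in a library, and 2 genes with reads in control uteri (*En2* and *Uncx*) had none in cKO uteri. The reads of all 29 summed to 21, 26, 25 and 27 in control uteri and to 39, 47, 48 and 31 in cKO uteri, or 0.662 to 1.01 against 1.09 to 1.57 CPM. Without *Shox2* the sums were 21, 26, 24 and 27 against 33, 41, 39 and 26 reads, so that cKO replicate 4 fell within the control range. The same counts and sums were not taken over all genes under the filter. Low genes leaned upward in general, since 1373 of the 2202 genes tested with a mean under 1 CPM over the 8 libraries were higher in cKO uteri. Of the 24 with a read in some library, *Shox2* and *Irx1* had all cKO values above all controls and *En2* had all below, against 1.69% and 0.637% of the 4864 genes with a read under the filter. At this depth a change in most of these genes was not detectable, and *Shox2* was the one gene of the 29 called when the filter was left out.

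**Figure D4:**
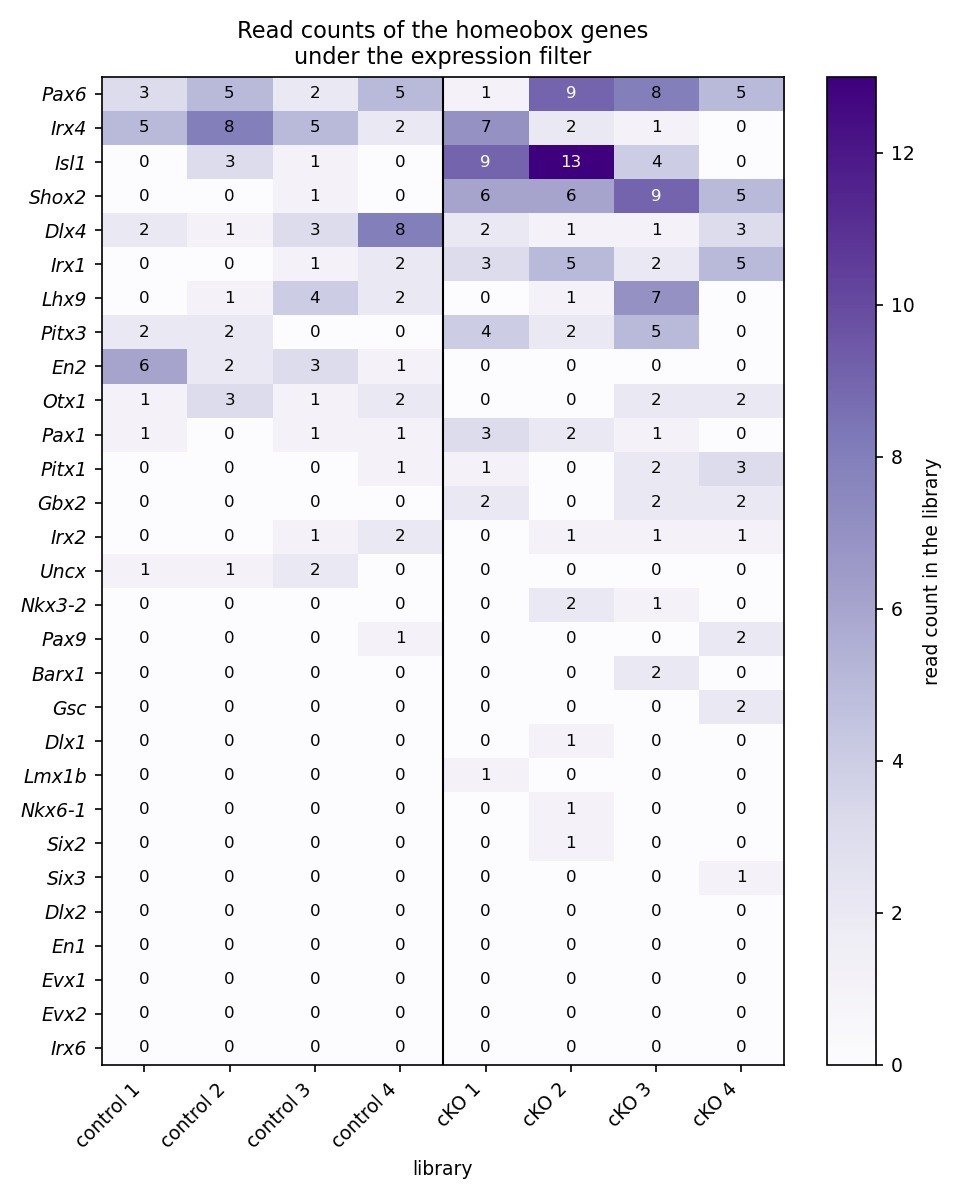
Read counts of the 29 homeobox genes under the expression filter (rows) in each library (columns), with darker cells for higher counts on the scale at the right. *Shox2* has 0 to 1 reads in control and 5 to 9 reads in cKO uteri, *En2* has reads in control uteri only, and the lowest 5 rows are at 0 throughout.

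The second question was whether the rise depended on the level in control uteri. Among the homeobox genes, the called fold changes over 2 were at low levels and the called changes of genes over 10 CPM were smaller. By the mean of the 4 control libraries, 7 tested genes were under 1 CPM, and 3 of them were called higher, all 3 over 2-fold, with a median log2 fold change of 0.743. None of the 3 genes at 1 to 10 CPM was called higher, and *Meox2* is among them. Of 11 genes over 10 CPM, 10 had a fold change above 0 and 3 were called higher, none over 2-fold, with a median of 0.116. Over all genes tested, 3.01% were called higher under 1 CPM, 4.17% at 1 to 10 CPM and 2.05% over 10 CPM, with medians of 0.229, 0.0625 and -0.018. The share of all genes that rose over 2-fold also declined with level, from 2.97% to 1.13% and 0.0366%. The control level and the fold change share the control libraries. By the mean of all 8 libraries instead, 2 of 7 genes under 1 CPM were called higher with a median of 0.392, 1 of 3 at 1 to 10 CPM and again 3 of 11 over 10 CPM. By that mean, 2.13%, 4.21% and 2.21% of all genes were called higher in the same 3 classes, with medians of 0.174, 0.0703 and -0.0151. The 7 low genes had a median standard error of 0.372 and the 11 high genes one of 0.0793, so that the log2 fold change of *Six4*, 0.60, would be less than 2 standard errors among the low genes. Across the 21 genes, Spearman's rho between log2 fold change and mean control level was -0.10 (Pearson -0.27 with the log2 level), against -0.22 (Pearson -0.21) across all 16658 genes, a description over genes that share libraries and depth. For the size of the fold change without its sign, rho was -0.48 over the 21 genes and -0.47 over all genes.

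**Figure D5:**
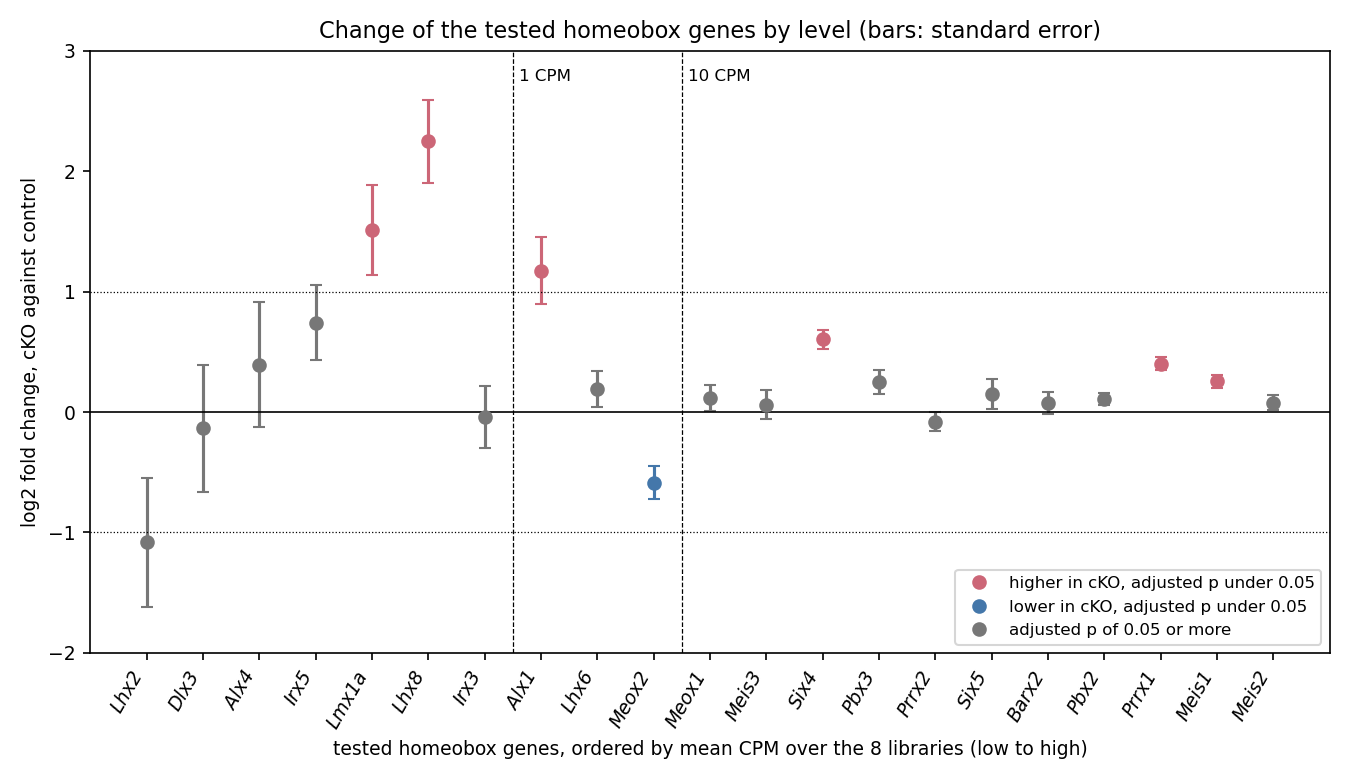
Log2 fold change of cKO against control uteri with its standard error (y axis) for the 21 homeobox genes tested, ordered by mean CPM over the 8 libraries (x axis), with broken lines at 1 and 10 CPM. The genes over 2-fold lie in the left part, *Six4*, *Prrx1* and *Meis1* in the right part, and the error bars shorten from left to right.

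For comparison, of 39 *Hox* cluster genes 33 were tested, 12 were called higher and 4 lower, and 9 rose over 2-fold, with a median log2 fold change of 0.417. Of 131 further homeobox genes 52 were tested, 4 were called higher and 2 lower, and 2 rose over 2-fold, with a median of 0.0356. Of the genes tested, the share called higher was thus 36.4% in the *Hox* clusters, 28.6% in the list of 50 and 7.69% in the further homeobox genes. Over all genes tested, 2.62% were called higher, 2.71% lower and 0.666% higher over 2-fold, with a median of 0.00044. The differences between the lists were not tested. The filter kept 42% of the 50 genes, 84.6% of the *Hox* genes and 39.7% of the further homeobox genes.

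Fat marker levels separated cKO replicates 1 to 3 from replicate 4, so the called genes were read in that replicate too. The fat marker sum of cKO replicate 4 was 5.53 CPM, near the control range. Its own log2 fold change against the 4 controls was 0.66 for *Six4*, 0.39 for *Prrx1*, 1.89 for *Lhx8*, 0.22 for *Meis1*, 0.78 for *Alx1*, 1.50 for *Lmx1a* and -0.78 for *Meox2*. With 1 cKO library the spread comes from the controls alone, only 12 genes of 16658 were called higher and 26 lower, and the adjusted p of the 7 genes, 0.0766 to 0.815, says little about them. With a fat score, the mean standardized log2 level of the 9 fat markers, as a covariate, only *Six4* passed (adjusted p = 0.0276), and 0.156% of all genes were called higher, against 2.62% without it. The log2 fold changes were then 0.69 for *Six4*, 0.38 for *Prrx1*, 1.92 for *Lhx8*, 0.20 for *Meis1*, 0.80 for *Alx1*, 1.38 for *Lmx1a* and -0.84 for *Meox2*, all in the same direction as before. The score was -0.819 to -0.538 in controls, 0.834 to 1.5 in cKO replicates 1 to 3 and -0.599 in replicate 4. The cKO term thus rests largely on replicate 4, and this fit is no separate check from that replicate alone. The neuron and Schwann cell list (9.69 to 13.7 against 11.8 to 19.9 CPM) and the stratified epithelium list (17.3 to 32.7 against 31.6 to 51.6 CPM) had higher lower and upper ends in cKO uteri with overlapping ranges. In each list 1 gene was called higher, *Sox10* of 6 tested and *Sprr1a* of 7, and none lower. The part of these lists in the results was not tested. *Six4*, *Prrx1* and *Lhx8* were called with any single library left out. *Lmx1a* and *Alx1* each lost the call in 5 of 8 such fits, and *Meis1* and *Meox2* in 4 of 8, with adjusted p up to 0.103. Over these fits the log2 fold change was 1.34 to 1.89 for *Lmx1a*, 0.97 to 1.35 for *Alx1*, 0.24 to 0.28 for *Meis1* and -0.66 to -0.52 for *Meox2*.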

How the data were processed

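RNA was taken from whole uteri of 4 control and 4 *Ezh2* cKO mice at postnatal day 10, and poly(A) libraries were made with a stranded TruSeq kit. Per the labels and the study's methods, the authors trimmed reads with Trimmomatic, checked them with FastQC, aligned them to GRCm38 with HISAT2 and assigned them to genes with featureCounts. The deposited counts are raw whole-number reads per gene identifier, 1 table per library. Tool versions and the strand setting of the counting are not given in the sources used here. The authors' table of edgeR fold changes and p-values was used only to pair gene identifiers with symbols, and a deposited table of normalized counts was not used.

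Counts were analysed in R 4.3.3 with edgeR 4.0.16. Genes above 0.2 CPM in at least 4 libraries were kept (16658 of 27179), libraries were scaled by TMM, and groups were compared with the robust quasi-likelihood test (glmQLFit, glmQLFTest) with Benjamini-Hochberg adjustment over all genes kept. CPM values use TMM-scaled totals. A gene was differentially expressed at an adjusted p under 0.05 and a fold change over 2. Standard errors are the absolute log2 fold change divided by the square root of F. The genes described one by one are those with an adjusted p under 0.05 or with no overlap between the groups, and the others are given by family. The 50 genes, the families and all lists were chosen with earlier results of these data known. Exon lengths, positions and overlaps came from GENCODE vM21 and promoter windows from RefSeq. The scripts were tested on simulated data. Group labels are genotypes, and as litters are not stated, p-values measure the spread between these uteri, which may share sources. Chi-square per gene over the 28 pairs of libraries was 7.45 to 30.0, so all 8 were counted as separate libraries. Alternatives were DESeq2 1.42.0, limma-voom (limma 3.58.1), other scalings and filters, a replicate block, a fat score as a covariate, and each library left out. No count column was left unmapped. Intervals and floors cover counting error only.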

Additional observations from a re-analysis of the deposited data

Results flagged for a closer look

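*Six4* in cKO replicate 2 stood apart from the other cKO uteri. It had 20.85 CPM where the other 3 had 23.65 to 23.92 CPM, and the gap was 0.912 of the range of the 4 values, above Dixon's critical value for 4 samples. The value was still above all 4 control uteri. In all, 44 groups of 4 values were examined in this way, and chance alone marks about 1 in 20.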

How the results depend on the processing

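The same 6 higher genes and *Meox2* were called with DESeq2 size factors, upper quartile scaling, library totals only, DESeq2, limma-voom and without robust fitting. With a filter of 1 CPM, 16 of the 50 genes were tested and 5 called higher, since *Lmx1a* was not tested. With no filter the median log2 fold change was 0.395 over 45 genes, against 0.00939 over all genes in that fit. The added genes include *Dlx1*, *Six2*, *Six3*, *Nkx6-1* and *Lmx1b*, each with 1 read over the 8 libraries. Their fold changes turn on that single read, so this median is no measure of a larger rise. When edgeR's glmTreat tested against a 2-fold change itself, 0 genes were differentially expressed in place of 3, and 2 were higher at an unadjusted p under 0.05 (0.594% of all genes). With the fat score as a covariate, 0 genes were differentially expressed, 1 was called higher and 0 lower, with a median of 0.0448. With a covariate from *Fabp4* and *Adipoq* alone, chosen after seeing the data, these were 0, 1 and 0 with a median of 0.0388. At an unadjusted p under 0.05, both covariates had 7 of 21 higher and 1 lower, against 3.97% and 4.38% of all genes with the fat score and 3.98% and 4.42% with the other. Both covariate fits rest largely on cKO replicate 4. With cKO replicate 4 alone against the 4 controls, its spread taken to be that of the controls, they were 0, 0 and 0 with a median of 0.0165, and only 12 of all genes tested were called higher and 26 lower (at an unadjusted p under 0.05, 7 and 1 of the 21 against 3.36% and 3.79% of all genes). With each library left out in turn, 1 to 3 genes were differentially expressed, 3 to 6 called higher and 0 to 1 lower, with medians of 0.108 to 0.212. The lowest counts, 1 and 3, came on omission of control replicate 3 or of cKO replicate 1 or 2, where 1.58%, 1.39% and 1.41% of all genes were called higher against 2.62%, and the fall of *Meox2* was not called without control replicate 1, 3 or 4 or cKO replicate 3. No result reversed. The replicate block kept 6 higher and 1 lower with a median of 0.133, and over all genes called 669 higher and 571 lower against 437 and 452. Same-numbered libraries correlated at 0.0663, 0.156, -0.0418 and 0.263, so the numbers were not read as pairs, and not every library correlated best with its own number. For genes at or under 3 reads, depth limits what could be seen.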

Other observations

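Among the further homeobox genes, the zinc finger homeobox gene *Zfhx4* rose over 2-fold, from 5.26 ± 1.41 to 16.7 ± 1.56 CPM (SD, n = 4 per group, edgeR adjusted p = 0.000126). *Mkx*, a tendon regulator of the TALE class to which MEIS and PBX belong, rose by 0.61 on the log2 scale with a standard error of 0.13, and *Pou6f1* by 0.35 with a standard error of 0.085. *Pknox1* and *Pknox2*, TALE genes whose proteins bind PBX partners as MEIS proteins do, were both lower. *Pknox1* fell by 0.25 with a standard error of 0.057 and *Pknox2* by 0.43 with a standard error of 0.075, while *Meis1*, *Meis2* and *Meis3* had log2 fold changes of 0.26, 0.08 and 0.06. These genes were picked out after their values were seen.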
